A study of Mus musculus with 12 samples.

Results

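The genes described here are 10 ubiquitin ligases linked to muscle atrophy: Fbxo32, Trim63, Fbxo30, Fbxo31, Fbxo40, Mul1, Znrf2, Nedd4, Traf6 and Cblb. Their probes were taken from the arrays by gene name, and older names were resolved through the accession given for each probe or the synonyms of the RefSeq gene table, which placed Mul1 under 0610009K11Rik and added a Fbxo31 probe listed as 1110003O08Rik and a Nedd4 probe listed as EG639396. They held 21 of the 41174 probes and 10 of the 27597 genes or names on the array. Of these, 18 probes of 9 genes were bright enough to be tested among 15234 genes, and each of the 18 was well above background on all 12 arrays. Cblb was not among these genes, because neither of its 2 probes was bright enough.

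A ubiquitin ligase binds a protein and directs the transfer of ubiquitin onto it, and chains of ubiquitin can mark that protein for the proteasome. F-box proteins such as Fbxo32 (atrogin-1 or MAFbx), Fbxo30 (MUSA1), Fbxo31 and Fbxo40 are the substrate-binding subunits of SCF ligases, which also hold a cullin, Skp1 and a RING protein, while Trim63 (MuRF1), Mul1, Znrf2, Traf6 and Cblb carry their own RING finger and Nedd4 is a HECT ligase. In skeletal muscle, Fbxo32 and Trim63 are the classical atrophy genes, which FoxO transcription factors switch on when insulin and Akt signalling falls, and loss of the nerve is among the stimuli known to raise them.

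The study profiled whole gastrocnemius, a calf muscle, of adult male CD1 mice. The mice were wild type (WT) or Smad4 knockout (KO; Smad4 is the common partner of the receptor-activated Smads of BMP and TGF-beta signalling), and the muscle was either innervated (control) or taken 14 days after denervation. Each of the 4 combinations of genotype and innervation had 3 arrays, and the design text describes 3 independent experiments with different animals. The labels name no Cre driver, floxed allele or deleted exon, so which cells lost Smad4 is not given in the sources used here, and with whole muscle fewer cells of a type and less RNA per cell cannot be told apart. The design asks how denervation changes these transcripts, and whether the change differs without Smad4.

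Each array was hybridised with Cy3-labelled RNA, and a level is the log2 of the processed signal minus that array's 75th percentile, so that 0 is the brightness below which 75 of 100 probes of that array lie. Between 50.2% and 56.4% of the probes were well above background on each array. Smad4 itself, at the brighter of its 2 probes, was at 3.59 to 4.02 in WT control, 3.18 to 3.49 in WT denervated, 2.19 to 2.42 in KO control and 1.77 to 2.05 in KO denervated muscle, so no KO array overlapped a WT array. It was 2.75-fold lower in KO than in WT control muscle (log2 difference -1.46 ± 0.15, SE; adjusted p = 0.0186) and 2.67-fold lower after denervation (-1.42 ± 0.15; adjusted p = 0.0016). Both calls ended with normexp background correction (-1.36 and -1.23; adjusted p = 1.00 and 0.161). The call in control muscle also ended on leaving out any of 7 single arrays (highest adjusted p 0.142), while the difference stayed between -1.55 and -1.34. The arrays lay on 4 slides scanned on 2 days. The second day held slide 4 alone, with WT denervated 2 and 3, KO control 1 and KO denervated 2. Scan day can therefore not be told apart from slide 4, and the slide and scan-day blocks are not independent checks. Muscle fibre markers were bright on every array, with their summed signal at 2009 to 3127 times the 75th percentile in WT control, 1684 to 2557 in WT denervated, 2957 to 3210 in KO control and 1382 to 1859 in KO denervated muscle.

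After denervation, 4 of the 9 tested ligases changed in each genotype, and the classical pair was not among them at the probes that stand for the genes. In WT muscle Fbxo30 and Znrf2 rose while Fbxo31 and Mul1 fell. In KO muscle Fbxo30 and Znrf2 rose while Fbxo31 and Fbxo40 fell. The median log2 difference of the 9 was 0.05 in WT and 0.09 in KO muscle, beside -0.02 and 0.00 over all tested genes. A gene was called at an adjusted p under 0.05 in limma's moderated test, fitted on all genes with the brightest probe standing for each; by that rule 39.2% of all genes were called in WT (18.7% higher and 20.6% lower) and 46.9% in KO muscle (23.7% higher and 23.2% lower), so 4 of 9 (44.4%) is close to the background in either genotype. Arrays of denervated and control muscle did not overlap for 6 of the 9 ligases in WT and 5 in KO muscle, beside 52.96% and 56.68% of all genes. The responses of all 9 had the same sign in WT and KO muscle, and 84.5% of all genes did.

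**Figure D1:**
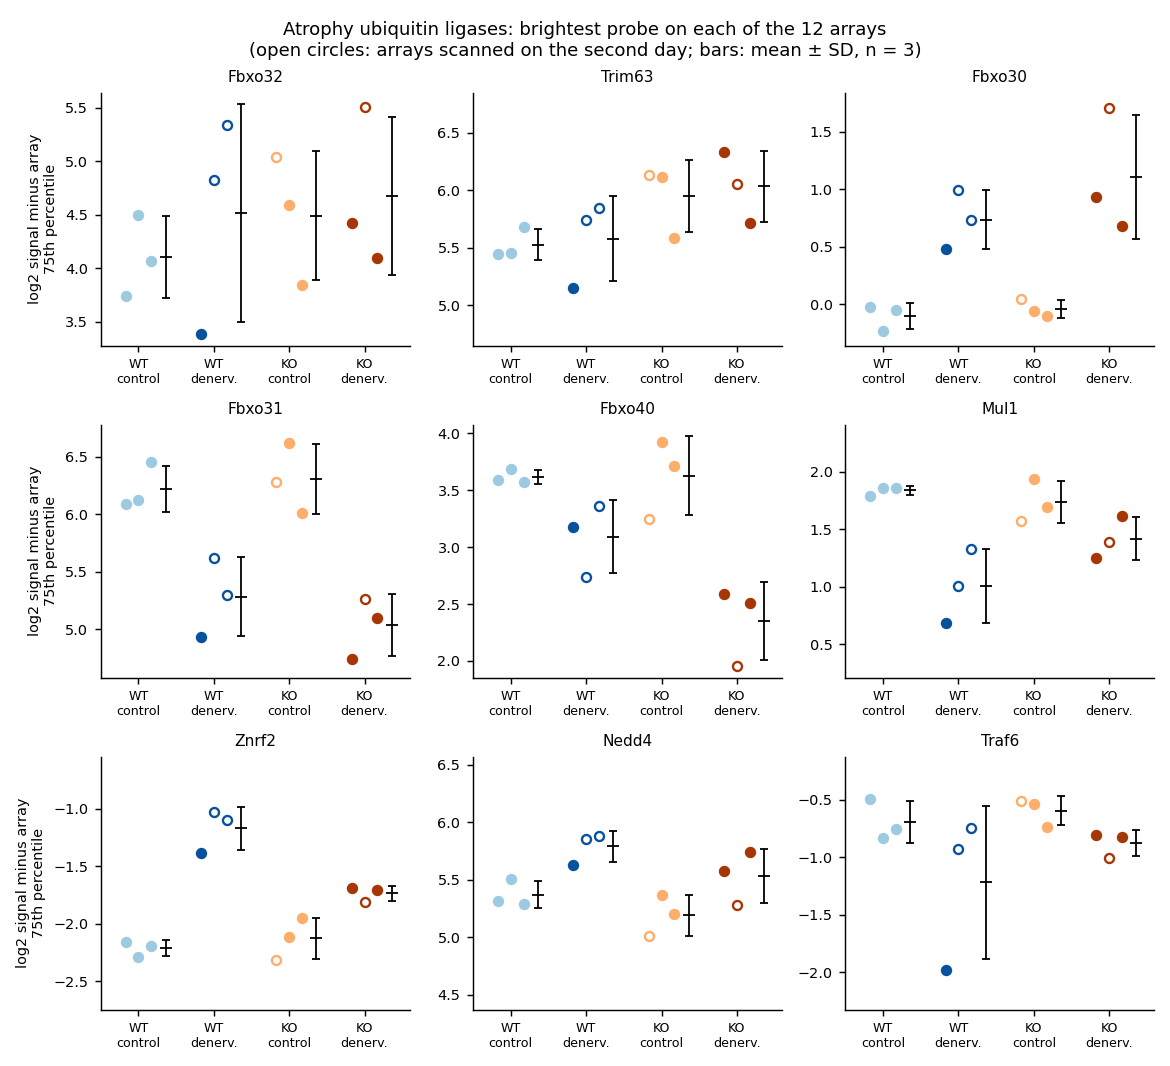
Level of each tested ligase (log2 processed signal minus the array's 75th percentile, vertical axis) on the 12 arrays, in 4 groups of 3; filled and open circles are arrays of the first and the second scan day, and the black bars are the mean ± SD. Denervated arrays lie clear of control arrays for Fbxo30, Fbxo31, Fbxo40 and Znrf2 in both genotypes, while those of Fbxo32 and Trim63 overlap. The 4 open circles of Fbxo32 (4.83 to 5.51) all lie above its 8 filled ones (3.38 to 4.59).

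Promoters of the 5 ligases called after denervation in either genotype and of Trim63 are shown to let their upstream sequence be compared. Of the 10 genes, 9 had 11 entries among the RefSeq promoters (GRCm38.p6), and Fbxo32 had none. The 250 bases before each start were searched on both strands for a FoxO motif (GTAAACA), an E-box (CANNTG, bound by myogenin and other basic helix-loop-helix factors) and a Smad motif (CAGAC); among the 32851 promoters of the table these letters occurred in 3.17%, 66.2% and 42.2%. Capitals mark the matches, and none of the matches shown overlap.
Trim63 (chr4:134314870-134315119, + strand): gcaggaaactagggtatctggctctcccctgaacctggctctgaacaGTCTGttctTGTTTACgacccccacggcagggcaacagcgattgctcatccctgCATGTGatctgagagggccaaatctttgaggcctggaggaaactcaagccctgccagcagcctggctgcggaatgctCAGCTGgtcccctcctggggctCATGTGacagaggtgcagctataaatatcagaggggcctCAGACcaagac
Fbxo30 (chr10:11281337-11281586, + strand): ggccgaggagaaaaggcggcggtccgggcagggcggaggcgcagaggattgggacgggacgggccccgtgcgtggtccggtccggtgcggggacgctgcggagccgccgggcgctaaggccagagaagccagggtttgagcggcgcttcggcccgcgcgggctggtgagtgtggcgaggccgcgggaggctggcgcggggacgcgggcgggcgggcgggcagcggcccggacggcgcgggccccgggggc
Znrf2 (chr6:54816666-54816915, + strand): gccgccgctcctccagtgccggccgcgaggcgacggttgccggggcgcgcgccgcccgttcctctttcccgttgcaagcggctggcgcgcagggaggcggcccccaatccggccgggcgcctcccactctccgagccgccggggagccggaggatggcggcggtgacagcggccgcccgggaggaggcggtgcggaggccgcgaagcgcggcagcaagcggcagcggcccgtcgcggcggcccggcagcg
Mul1 (chr4:138434422-138434671, + strand): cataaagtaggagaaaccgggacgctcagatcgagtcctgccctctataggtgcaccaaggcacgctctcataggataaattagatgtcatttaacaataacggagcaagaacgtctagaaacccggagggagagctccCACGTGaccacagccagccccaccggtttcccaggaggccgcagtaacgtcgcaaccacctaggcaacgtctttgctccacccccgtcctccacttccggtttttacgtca
Fbxo31 (chr8:121578807-121579056, - strand): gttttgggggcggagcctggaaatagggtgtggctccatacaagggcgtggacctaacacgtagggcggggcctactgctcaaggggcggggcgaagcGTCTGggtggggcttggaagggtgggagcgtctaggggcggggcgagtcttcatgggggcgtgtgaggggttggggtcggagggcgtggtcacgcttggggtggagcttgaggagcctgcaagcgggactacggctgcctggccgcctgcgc
Fbxo40 (chr16:36990468-36990717, - strand): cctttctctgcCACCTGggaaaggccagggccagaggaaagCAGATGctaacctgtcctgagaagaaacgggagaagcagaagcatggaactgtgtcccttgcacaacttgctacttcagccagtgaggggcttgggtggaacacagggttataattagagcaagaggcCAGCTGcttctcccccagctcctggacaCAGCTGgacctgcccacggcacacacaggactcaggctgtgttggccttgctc

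Trim63 was the only one of the 9 genes with the FoxO motif in this window, 194 to 188 bases before the start, beside 3 E-boxes and 2 Smad motifs, one of which ends 7 bases before the start. Fbxo30 and Znrf2, the ligases that rose in both genotypes, held none of the 3 motifs. Both windows were rich in G and C (80.4% and 80.8%, against 56.8% for Trim63 and 68% for Fbxo31). The upstream Nedd4 entry, not shown, held none of the 3 motifs either (74% G and C), while its other entry held 4 E-boxes. The lack of motifs was thus not particular to the ligases that rose. The upstream entry of Fbxo40 held 4 E-boxes, its other entry 2, the promoter of Fbxo31 held 1 Smad motif, and that of Mul1 held 1 E-box, 111 to 106 bases before the start. These matches describe letters in a window and no binding was measured.

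Fbxo32 encodes atrogin-1, the F-box protein whose reported targets are MyoD and the translation factor eIF3-f. Its single probe (A_51_P109369, chr15:58010280-58010339, mm8) showed no denervation response that passed the test. On the WT control arrays its level was 3.74, 4.50 and 4.07, and on the WT denervated arrays 3.38, 4.83 and 5.34. In KO muscle it was 5.04, 4.59 and 3.84 in control and 4.43, 5.51 and 4.10 in denervated muscle. Denervated arrays were thus both the lowest and among the highest, and the groups overlapped in each genotype. The log2 difference was 0.41 ± 0.51 (SE; 95% interval -0.71 to 1.53; adjusted p = 0.552) in WT and 0.18 ± 0.51 (-0.94 to 1.3; adjusted p = 0.79) in KO muscle, so the arrays allow a rise as well as a fall. The spread of Fbxo32 within groups (SD 0.72) was above that of 95.2% of genes, whose median was 0.25.

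The spread of Fbxo32 moved with the scan day, or with slide 4, which alone was scanned on the second day. Each of the 4 arrays of the second day was higher (4.83 to 5.51) than each of the 8 arrays of the first (3.38 to 4.59), which was so, in either direction, for 106 of the 15234 genes (0.696%), and in each of the 3 groups with arrays of both days the second-day arrays were the highest. With scan day as a block the WT difference changed sign, to -0.42 ± 0.32 (adjusted p = 0.346), and on slide 1, the only slide with WT arrays of both conditions, it was -0.35. In KO muscle the scan-day block left 0.18 ± 0.28 (adjusted p = 0.61), and the difference was 0.25 on slide 3 and 0.47 on slide 4. The second-day arrays were those of slide 4 alone, so day and slide cannot be told apart. What else differed between the arrays of the 2 days is not given in the sources used here, and its part in the Fbxo32 level was not tested.

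Fbxo30 encodes MUSA1, an F-box protein reported to be required for muscle loss after denervation. It rose after denervation in both genotypes. At its brightest probe (A_51_P223036, chr10:10986993-10987052, mm8) the WT control arrays were at -0.02, -0.23 and -0.05 and the WT denervated arrays at 0.48, 1.00 and 0.73. The KO control arrays were at 0.05, -0.06 and -0.10 and the KO denervated arrays at 0.93, 1.71 and 0.68. Every denervated array lay above every control array, in WT and in KO muscle, and KO denervated 2 was the highest of all. As for Fbxo32, the second-day arrays were the highest in each of the 3 groups with arrays of both days. The ranges of the 2 days overlapped here (-0.23 to 0.93 and 0.05 to 1.71). No WT control array was of the second day. The rise was 1.79-fold in WT (log2 difference 0.84 ± 0.24, SE; adjusted p = 0.016) and 2.21-fold in KO muscle (1.15 ± 0.24; adjusted p = 0.00231). The WT call ended with slide or scan day as a block (0.50 and 0.52; adjusted p = 0.139 and 0.073), with another background correction (normexp, 0.57; adjusted p = 0.211), and without WT denervated 2 or WT control 2 (0.71 and 0.77; highest adjusted p 0.0633).

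The other 2 Fbxo30 probes, which lie 709 bases upstream (A_52_P604568) and 1031 bases downstream (A_52_P314421), moved the same way by different amounts. At the upstream probe the WT levels were -1.01, -1.55 and -1.08 in control and 0.37, 0.22 and 0.37 in denervated muscle. The KO levels there were -0.81, -1.20 and -0.98 in control and 0.86, 1.1 and 0.46 in denervated muscle. Both sets of denervated arrays were well clear of their controls, and the 3 KO denervated arrays all lay above the 3 WT denervated ones. The difference at this probe was 1.53 ± 0.20 in WT (adjusted p in the fit over probes 1.59e-04) and 1.80 ± 0.20 in KO muscle (3.88e-05), and it passed in both genotypes with slide or scan day as a block (WT 1.25 and 1.39; adjusted p = 0.00226 and 0.00119). The downstream probe gave 0.52 ± 0.24 in WT, which did not pass (adjusted p = 0.113), and 0.78 ± 0.24 in KO muscle (adjusted p = 0.0213), a call that ended without KO denervated 1 or 2 or KO control 2 or 3 (highest adjusted p 0.0852), with normexp (0.62; adjusted p = 0.0769) or when arrays were scaled to their median (0.72; adjusted p = 0.0516).

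Fbxo31, an F-box protein known for the degradation of cyclin D1, was called at only 1 of its 2 probes, which lie 2595 bases apart. The brighter probe (A_51_P219532, chr8:124435431-124435490, mm8), listed as 1110003O08Rik, fell in both genotypes. Its WT levels were 6.09, 6.12 and 6.45 in control and 4.93, 5.62 and 5.30 in denervated muscle. Its KO levels were 6.28, 6.62 and 6.01 in control and 4.74, 5.27 and 5.10 in denervated muscle. All 6 denervated arrays lay below all 6 control arrays. The log2 difference was -0.94 ± 0.22 (1.92-fold lower; adjusted p = 0.00678) in WT and -1.27 ± 0.22 (2.41-fold lower; adjusted p = 8.68e-04) in KO muscle, and within slides it was -1.16 in WT and -0.91 and -1.02 in KO muscle.

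The other Fbxo31 probe (A_51_P356283, chr8:124438026-124438085, mm8), whose accession is the gene's RefSeq transcript, did not fall. In WT muscle it was at 4.28, 4.0 and 4.30 in control and 4.57, 4.75 and 4.39 in denervated muscle. In KO muscle it was at 4.33, 4.45 and 3.91 in control and 4.26, 4.13 and 3.99 in denervated muscle. Each WT denervated array was above each WT control array, but the difference of 0.37 ± 0.17 did not pass (adjusted p = 0.113; 0.0467 after quantile normalization), and the KO difference was -0.10 ± 0.17 (adjusted p = 0.654). The mean of both probes ended the WT call (-0.28; adjusted p = 0.225). The difference between the probes was not tested.

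Fbxo40 encodes a muscle-restricted F-box protein reported to direct the degradation of Irs1, the insulin receptor substrate. It fell in KO muscle. Its brighter probe (A_52_P279557, chr16:36883776-36883835, mm8) was at 3.25, 3.92 and 3.72 in KO control and 2.59, 1.95 and 2.51 in KO denervated muscle. In WT muscle it was at 3.59, 3.69 and 3.58 in control and 3.18, 2.74 and 3.37 in denervated muscle. Denervated arrays were below control arrays in both genotypes, and the KO denervated arrays were the lowest 3 of the 12. The fall in KO muscle was 2.43-fold (log2 difference -1.28 ± 0.23; adjusted p = 9.80e-04; -1.20 and -1.29 within slides), and the WT difference of -0.53 ± 0.23 did not pass (adjusted p = 0.092; -0.24 with scan day as a block). The other probe, 841 bases away, gave -1.38 ± 0.26 in KO (adjusted p = 0.0014) and -0.54 ± 0.26 in WT muscle (adjusted p = 0.128).

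Trim63 encodes MuRF1, the RING ligase of thick-filament proteins such as the myosin light chains and myosin binding protein C. Its brightest probe (A_52_P517224, chr4:133601186-133601245, mm8) showed no response that passed the test. In WT muscle it was at 5.45, 5.46 and 5.68 in control and 5.15, 5.75 and 5.84 in denervated muscle. In KO muscle it was at 6.14, 6.12 and 5.59 in control and 6.33, 6.06 and 5.72 in denervated muscle. The groups overlapped in each genotype, and the log2 difference was 0.05 ± 0.23 (95% interval -0.45 to 0.56; adjusted p = 0.874) in WT and 0.09 ± 0.23 (-0.42 to 0.59; adjusted p = 0.778) in KO muscle. The sign in WT muscle turned with slide or scan day as a block (-0.16 in each).

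The other Trim63 probe (A_51_P115335, chr4:133589380-133589439, mm8), which carries a cDNA accession and lies 11806 bases upstream on the same strand, did rise in KO muscle. It was at -0.26, 0.71 and -0.52 in KO control and 0.69, 2.42 and 1.78 in KO denervated muscle. In WT muscle it was at -0.19, -0.49 and 0.63 in control and 0.41, 0.98 and 1.36 in denervated muscle. The lowest denervated array lay just below the highest control array in KO muscle (0.69 and 0.71), and the WT arrays overlapped too. The KO difference was 1.65 ± 0.47 (adjusted p = 0.0138), a call that ended without KO denervated 2 (1.26; adjusted p = 0.0597) or KO control 3 (1.40; adjusted p = 0.0537). The WT difference of 0.94 ± 0.47 did not pass (adjusted p = 0.138), and passed with the replicate number as a block (adjusted p = 0.0345). Averaged over both probes, Trim63 was called in KO muscle (0.87 ± 0.30; adjusted p = 0.0313). Whether this probe lies in an exon of Trim63 was not determined, as no annotation of mm8 was used here.

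**Figure D2:**
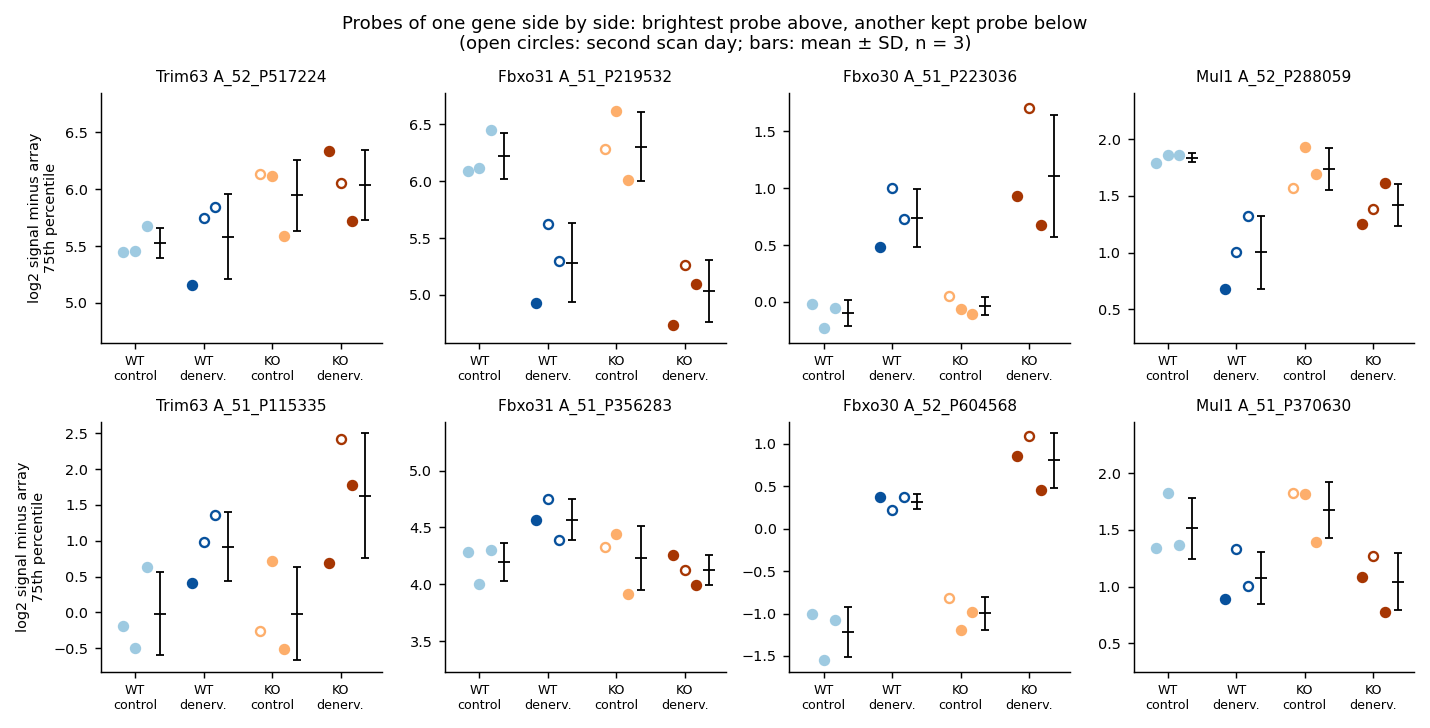
Levels (log2 processed signal minus the array's 75th percentile, vertical axis) of 2 probes of the same gene, the brightest above and another below, for Trim63, Fbxo31, Fbxo30 and Mul1, on 12 arrays in 4 groups of 3; open circles are arrays of the second scan day and bars are the mean ± SD. For Trim63 the upper panel shows overlapping groups and the lower panel a KO difference of 1.65, for Fbxo31 only the upper panel falls, and for Fbxo30 both panels rise.

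Mul1 encodes a RING ligase of the outer mitochondrial membrane, for which mitofusin 2 (Mfn2) is a reported target. It fell in WT muscle at its brightest probe (A_52_P288059, chr4:137714183-137714242, mm8). There the WT levels were 1.79, 1.86 and 1.86 in control and 0.68, 1.00 and 1.33 in denervated muscle. The KO levels were 1.57, 1.93 and 1.69 in control and 1.25, 1.39 and 1.62 in denervated muscle. WT control arrays were tightly grouped and above all WT denervated arrays, while KO denervated 3 overlapped the KO controls. The difference was -0.83 ± 0.18 (1.78-fold lower; adjusted p = 0.0037) in WT and -0.32 ± 0.18 (adjusted p = 0.167) in KO muscle.

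The other 2 Mul1 probes were called in KO and not in WT muscle. They start 62 bases apart, 2425 and 2487 bases upstream of the brightest. A_51_P370630 was -0.43 ± 0.20 in WT (adjusted p = 0.114; 0.0444 with the replicate number as a block, and -0.56 and -0.62 with slide or scan day as a block, adjusted p = 0.0427 and 0.048) and -0.63 ± 0.20 in KO muscle (adjusted p = 0.0246). A_52_P166308 was -0.42 ± 0.20 in WT (adjusted p = 0.121) and -0.64 ± 0.20 in KO muscle (adjusted p = 0.0217). Both probes were lower on every denervated array than on every control array in either genotype. Their KO calls ended without single arrays (highest adjusted p 0.0942 and 0.0871): the first without KO control 1 or 2 or KO denervated 3, and the second without KO denervated 1 or 3 or KO control 2. They also ended with normexp (-0.54 and -0.69; adjusted p = 0.18 and 0.0943). With the mean of all 3 probes Mul1 was called in KO muscle too (-0.53 ± 0.16; adjusted p = 0.0188).

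Znrf2, a membrane-associated RING finger ligase, rose in both genotypes at its single tested probe (A_52_P556586, chr6:54818042-54818101, mm8). The WT levels were -2.15, -2.29 and -2.19 in control and -1.38, -1.03 and -1.10 in denervated muscle. The KO levels were -2.31, -2.12 and -1.95 in control and -1.69, -1.81 and -1.70 in denervated muscle. Control arrays of the 2 genotypes overlapped, and the 3 KO denervated arrays lay between the controls and the WT denervated arrays without touching either. The rise was 2.06-fold in WT (log2 difference 1.04 ± 0.14; adjusted p = 2.19e-04) and 1.31-fold in KO muscle (0.39 ± 0.14; adjusted p = 0.0407). The WT value was 1.08 with slide and 1.06 with scan day as a block, and the call ended only with normexp (0.64; adjusted p = 0.109). The KO call ended under several alternatives, among them slide as a block (adjusted p = 0.0839) and the omission of any of WT control 1 to 3, KO denervated 1 to 3 or KO control 1 or 2 (highest adjusted p 0.14).

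Nedd4, a HECT ligase with Notch1 among its reported targets in muscle, had 3 probes that all gave positive differences, of which different ones passed in the 2 genotypes. The brightest (A_52_P648424, chr9:72548065-72548124, mm8) was at 5.31, 5.50 and 5.29 in WT control, 5.63, 5.85 and 5.88 in WT denervated, 5.01, 5.36 and 5.20 in KO control and 5.58, 5.28 and 5.74 in KO denervated muscle. WT denervated arrays cleared the WT controls, and KO denervated 2 lay among the KO controls. Its difference of 0.42 ± 0.16 in WT (adjusted p = 0.0561) and 0.34 ± 0.16 in KO muscle (adjusted p = 0.097) did not pass. Quantile normalization and the authors' processed values each took both over the threshold (0.53 and 0.57 in WT, 0.61 and 0.58 in KO; highest adjusted p 0.048), and so did the mean of all 3 probes (0.55 and 0.43; adjusted p = 0.00518 and 0.0157). The WT difference alone was also called with slide as a fixed or a random block (0.60 and 0.46; adjusted p = 0.0392 and 0.0397), array median scaling (adjusted p = 0.0466) and the filter that asks for all 12 arrays (adjusted p = 0.0494). Omission of KO denervated 2 took both over the threshold as well (0.42 in WT and 0.47 in KO; adjusted p = 0.0384 in each).

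The probe 6840 bases upstream (A_51_P295022) rose in WT muscle, from 3.93, 4.07 and 3.71 to 4.47, 4.56 and 4.67 (0.66 ± 0.15; adjusted p = 0.00477), and was 0.20 ± 0.15 in KO muscle (adjusted p = 0.286). The WT call ended with normexp (0.45; adjusted p = 0.367). The probe listed as EG639396 (A_52_P352362), 54600 bases upstream of the brightest, was 0.57 ± 0.25 in WT (adjusted p = 0.0906) and 0.74 ± 0.25 in KO muscle (adjusted p = 0.0298). That KO call ended without KO denervated 1 or 2 or KO control 1 (highest adjusted p 0.115), and with normexp, array median scaling or slide as a block (highest adjusted p 0.233).

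Traf6, a RING ligase of cytokine receptor signalling that builds non-degradative ubiquitin chains, showed no response that passed the test. Its measurable probe (A_52_P510215, chr2:101501342-101501401, mm8) was at -0.49, -0.83 and -0.75 in WT control and -1.98, -0.93 and -0.75 in WT denervated muscle. In KO muscle it was at -0.51, -0.54 and -0.74 in control and -0.81, -1.01 and -0.82 in denervated muscle. The KO arrays were separated and the WT arrays were not, with WT denervated 1 far below the rest. The difference was -0.53 ± 0.27 (adjusted p = 0.143) in WT and -0.28 ± 0.27 (adjusted p = 0.409) in KO muscle. Without WT denervated 3 the WT difference was called (-0.76; adjusted p = 0.0485), and without WT denervated 1 it was -0.14. The other Traf6 probe (A_52_P529306) was not well above background on any array.

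Cblb, a RING ligase reported to act on Irs1 in unloaded muscle, could not be followed. Its probe A_52_P558872 was not well above background on any of the 12 arrays, and A_51_P323011 was so on 2, WT denervated and KO control having 1 each. Cblb has no value in the main fit, and its difference in the fit without a filter is not reported here.

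**Figure D3:**
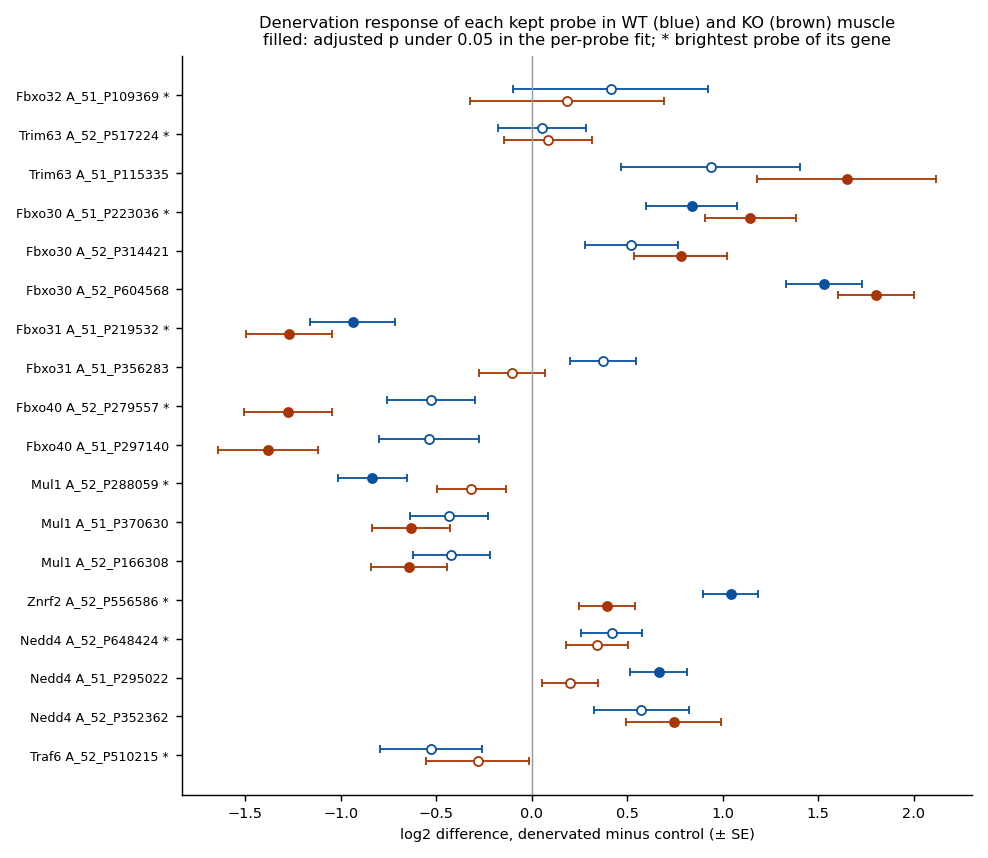
Denervated minus control log2 difference (horizontal axis) of each of the 18 tested probes in WT (blue) and KO (brown) muscle, with bars of ± SE; filled circles passed an adjusted p of 0.05 in the fit over probes, and asterisks mark the probe that stands for its gene. WT and KO responses lie on the same side of 0 for 17 of the 18 probes, the exception being the Fbxo31 probe A_51_P356283, and 6 probes are filled in WT and 11 in KO muscle; over all 22535 kept probes 84.0% had the same sign, and 38.7% and 46.9% were called.

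In innervated muscle none of these ligases was called between the genotypes in limma's test, and 0 had an unadjusted p under 0.05, beside 4.04% of all genes. The KO minus WT log2 differences of the 9 ran from -0.18 for Nedd4 to 0.42 for Trim63, the arrays of the 2 genotypes overlapped for every one of them (8.55% of all genes did not overlap), and 0.00656% of all genes were called, a single gene, which was Smad4. For Trim63 the 95% interval of the difference was -0.08 to 0.93, which holds 0.

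In denervated muscle none of the 9 passed limma's test either (3 at an unadjusted p under 0.05, beside 16.3% of all genes), where 2.19% of all genes did (0.958% higher and 1.23% lower; 146 and 187 genes, or 117 and 246 when arrays were scaled to their median). For Fbxo40 and Znrf2 the KO denervated arrays all lay below the WT denervated ones, and 21.69% of all genes did not overlap in either direction. Fbxo40 was 1.67-fold lower in KO denervated muscle (log2 difference -0.74 ± 0.23, 95% interval -1.25 to -0.24; adjusted p = 0.136), with -0.59 on slide 1 and -1.1 on slide 4. With scan day as a block it was called (-0.89 ± 0.19; adjusted p = 0.0337), and its other probe gave -0.75, and -0.93 with the block ( adjusted p = 0.19 and 0.0388). Znrf2 was 1.48-fold lower (-0.56 ± 0.14, 95% interval -0.88 to -0.25; adjusted p = 0.0727), with -0.30 and -0.74 on those slides, and was called after quantile normalization (-0.59; adjusted p = 0.0439) and with the authors' processed values (-0.60; adjusted p = 0.0395).

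Fbxo30 was higher by 0.37 ± 0.24 in KO than in WT denervated muscle at its brightest probe (95% interval -0.15 to 0.89; adjusted p = 0.481), a difference that did not pass. At the upstream probe, where the 3 KO arrays lay above the 3 WT arrays, it was 0.49 ± 0.20 (adjusted p = 0.262). Fbxo32 differed by 0.16 ± 0.51 (-0.96 to 1.28) and Trim63 by 0.45 ± 0.23 (-0.05 to 0.96), and neither passed. For Mul1 the difference was 0.41 ± 0.18 (0.02 to 0.81; adjusted p = 0.279) at the brightest probe but -0.03 and -0.11 at the others. The dimmer Fbxo31 probe, A_51_P356283, was lower on every KO denervated array (3.99 to 4.26) than on every WT denervated array (4.39 to 4.75). At the brighter Fbxo31 probe the arrays overlapped (-0.25 ± 0.22). In the fit over probes 0 of the 18 were called in this comparison.

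**Figure D4:**
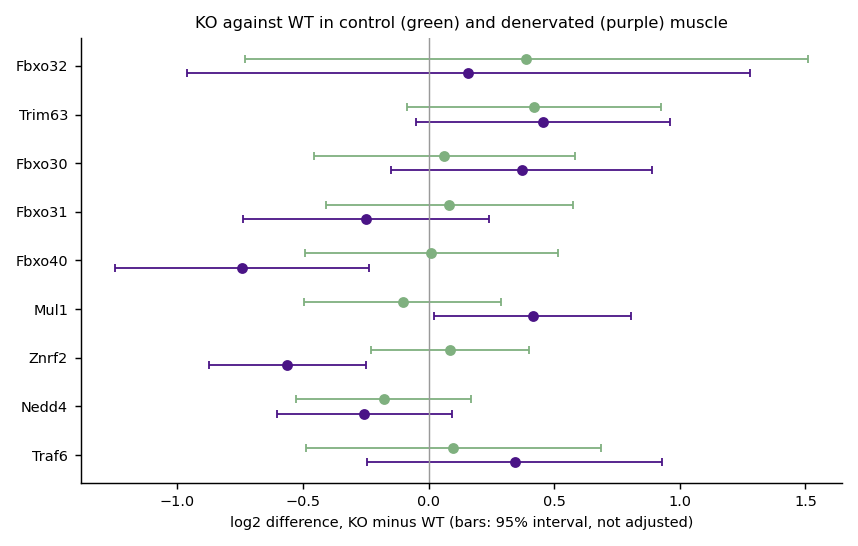
KO minus WT log2 difference of the 9 tested ligases (horizontal axis) in control (green) and denervated (purple) muscle, with bars of the 95% interval before adjustment. In control muscle all 9 intervals span 0, and in denervated muscle those of Fbxo40 and Znrf2 lie below 0 and that of Mul1 above it, although none passed after adjustment over 15234 genes.

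The difference between the denervation responses of the genotypes was tested as an interaction, which no ligase passed in limma's fit (2 at an unadjusted p under 0.05, beside 9.43% of all genes) and 0.184% of all genes did (0.0985% higher and 0.0853% lower; 15 and 13 genes, or 10 and 14 when arrays were scaled to their median). It was -0.75 ± 0.32 for Fbxo40 (95% interval -1.47 to -0.04; adjusted p = 0.498) and -0.65 ± 0.20 for Znrf2 (-1.09 to -0.21; adjusted p = 0.301). For Mul1 it was 0.52 ± 0.25 (adjusted p = 0.559), and for Fbxo30 0.31 ± 0.33 (adjusted p = 0.827). Hence the calls of Mul1 in WT only and of Fbxo40 in KO only are not shown to be differences between genotypes. The comparisons share their arrays, so the values of a gene in them are not independent.

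Partners of the F-box proteins were also followed. Of 9 SCF core and NEDD8 genes (NEDD8 switches cullins on), 1 was called higher and 0 lower in WT and 2 and 0 in KO muscle. Their medians were 0.06 and 0.17. Over all tested genes 39.2% and 46.9% were called, and the medians were -0.02 and 0.00. Cand1, which exchanges F-box proteins on the cullin, was called at its brightest probe (0.82 ± 0.18 in WT and 1.24 ± 0.18 in KO), but 2 of its 3 probes in WT and 1 in KO had the other sign. Rbx1, the RING subunit, was 0.41 ± 0.16 in KO muscle (adjusted p = 0.0469), with 1 of its 3 probes of the other sign. Uba3 of the NEDD8 activating enzyme and Ube2m, which carries NEDD8, were not called (0.03 and 0.30, and 0.06 and -0.36).

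The ubiquitin genes called in KO muscle were lower. Of 6 ubiquitin and E1 genes, 1 was called higher and 0 lower in WT, and 0 and 2 in KO muscle (medians -0.13 and -0.52). Lower calls made up 20.6% of all genes in WT and 23.2% in KO muscle, and higher calls 18.7% and 23.7%. Ubb, a polyubiquitin gene, was -0.57 ± 0.19 in KO muscle (adjusted p = 0.0257). Rps27a, which encodes ubiquitin fused to a ribosomal protein, was called in WT muscle (0.44 ± 0.16; adjusted p = 0.0463).

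Among 15 other ligases expressed in muscle, 3 were called higher and 4 lower in WT and 2 and 8 in KO muscle (medians -0.20 and -0.42). The share of all genes called was 39.2% in WT and 46.9% in KO muscle. Mdm2, the ligase of p53, was at 2.05 to 2.2 in WT control, 2.85 to 3.11 in WT denervated, 2.05 to 2.19 in KO control and 3.62 to 4.2 in KO denervated muscle. It was the only gene of that list called between the genotypes in denervated muscle (1 of 15, beside 2.19% of all genes). Mdm2 was 0.87 ± 0.16 higher in KO (adjusted p = 0.0188), although its interaction was not called (0.89 ± 0.23, adjusted p = 0.19). Asb2, the substrate subunit of a cullin-5 ligase, fell by 1.75 and 1.97 on the log2 scale in WT and KO muscle (adjusted p = 4.48e-04 and 1.45e-04). Stub1, a chaperone-linked ligase, and Wwp1, a HECT ligase related to Nedd4, also fell in both (-0.45 and -0.55, and -0.80 and -0.51).

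Insulin, Akt and FoxO genes, which govern Fbxo32 and Trim63, were called in both directions. Of 9 tested, 4 were called higher and 1 lower in WT and 4 and 2 in KO muscle. Among all genes 18.7% were called higher and 20.6% lower in WT, and 23.7% and 23.2% in KO muscle. Foxo3 and Foxo4 were not tested, as no probe of theirs was bright enough. Foxo1 rose by 1.12 ± 0.14 and 1.40 ± 0.14 on the log2 scale (adjusted p = 1.09e-04 and 1.63e-05). Irs1 was at 4.68 to 4.95 in WT control, 2.18 to 3.33 in WT denervated, 4.16 to 4.58 in KO control and 1.84 to 2.49 in KO denervated muscle, and fell by 1.89 and 2.24 (adjusted p = 4.49e-04 and 1.05e-04). Akt2 (1.09 and 0.71) and Pik3r1, a regulatory subunit of phosphoinositide 3-kinase (0.99 and 1.47), rose in both; another Akt2 probe had the other sign in KO muscle.

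Regulators known to link the lost nerve to the ligases were followed on the same arrays. Of 8, 4 were called higher and 2 lower in each genotype, beside 39.2% of all genes called in WT and 46.9% in KO muscle. Mef2c and Mef2d were called in neither. Myog, the transcription factor myogenin that acts on the Fbxo32 and Trim63 promoters, rose by 4.50 ± 0.37 in WT and 3.85 ± 0.37 in KO muscle (adjusted p = 5.70e-06 and 1.34e-05), and Hdac4, a deacetylase that raises myogenin by repressing Dach2, by 2.92 and 2.75. Dach2, a repressor of myogenin, was called lower in both, but its probe was not well above background on any denervated array, and on 2 of 3 KO control arrays it was. Tnfrsf12a, the TWEAK receptor Fn14, rose by 2.49 ± 0.23 in WT and 1.05 ± 0.23 in KO muscle, with an interaction of -1.44 ± 0.33 that did not pass (adjusted p = 0.142). On the same arrays Fbxo32 and the brightest Trim63 probe passed no test, which does not show that they failed to respond. The Fbxo32 intervals held a rise as well as a fall, and the other Trim63 probe was called higher in KO muscle. A link between myogenin and the ligases was not tested.

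Transcripts of reported targets of these ligases were also followed. Of 10, 1 was called higher and 3 lower in WT and 1 and 6 in KO muscle (medians -0.26 and -0.71). Calls in either direction made up 39.2% of all genes in WT and 46.9% in KO muscle. Irs1 and Myod1 stand in another of these lists as well, and Mylpf among the fibre markers. Mybpc2, the fast myosin binding protein C that MuRF1 acts on, fell by 1.51 and 1.58 (adjusted p = 8.79e-05 and 4.85e-05), and Mfn2, the mitofusin, by 0.98 and 0.99. Mybpc1 was 0.29 ± 0.23 in WT and -0.88 ± 0.23 in KO muscle (adjusted p = 0.331 and 0.00859), with an interaction of -1.17 ± 0.32 (adjusted p = 0.221).

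Markers of the cell types in the muscle moved with denervation beside these values. Over all genes 20.6% were called lower in WT and 23.2% in KO muscle, and 18.7% and 23.7% higher. Of 8 fibre markers 1 was called lower in WT and 7 in KO muscle, and none higher. Of 5 endothelial markers 3 and 4 were lower, with the summed signal falling outside the control range (13.9 to 18.7 and 15.7 to 17.2 in control, 5.37 to 9.29 and 7.52 to 8.18 in denervated muscle). Of 5 Schwann cell markers 3 were lower in each genotype (sums 15.1 to 24.8 and 13.0 to 29.0 in control, 3.69 to 5.42 and 5.34 to 6.07 in denervated muscle). Of 5 macrophage markers 1 and 3 were higher (3.29 to 3.80 and 2.41 to 4.84 in control, 4.46 to 5.28 and 4.96 to 6.63 in denervated muscle). Of 5 fibroblast markers 1 was lower in WT and none in KO muscle (162 to 176 and 148 to 252 in control, 135 to 157 and 160 to 216 in denervated muscle). Of 4 satellite cell markers only Myf5 was called, higher in each genotype (sums 4.59 to 5.87 and 4.53 to 6.88, and 5.74 to 8.34 and 4.62 to 6.03). Myf5 was well above background in KO denervated muscle only, and it entered the test through that group. Its WT call compares groups without a measured level and shows no rise there. Its KO call has no measured control level. The part of these shifts in the levels of the ligases was not tested.

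The genes whose pattern over the 12 arrays was most like that of 3 leading ligases were found by the root mean square difference after each gene was centred on its own mean, among 11236 genes with a RefSeq symbol whose brightest probe was well above background on all arrays. For Fbxo30 they were Twf1, an actin-binding protein (0.149 on the log2 scale), Kin, a nucleic acid binding protein (0.158), and Rcor1, a corepressor (0.16), which rose after denervation by 0.67, 0.74 and 0.96 in WT and 1.06, 0.94 and 1.08 in KO muscle. For Fbxo32 they were Wwtr1 (0.355), Tbk1 (0.359) and H2ac1 (0.377), and for Trim63 Bicc1 (0.163), Entpd2 (0.166) and Apobr (0.166). The distance of the nearest gene was thus smallest for Fbxo30 and largest for Fbxo32. Their own SD over the arrays was 0.57 and 0.63, against 0.33 for Trim63. The distance of 0.163 for Trim63 is therefore to be read against a smaller spread of its own.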

How the data were processed

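Total RNA of 12 gastrocnemius samples, 3 per group, was hybridised to 1-colour (Cy3) Agilent mouse arrays with probe positions on mm8, per the file headers. The deposited scanner files hold intensity values per spot, background-subtracted and detrended by the authors with Agilent Feature Extraction 10.7.3.1 per the file headers, or 10.5.1.1 per the submitters' processing notes. The authors' deposited value table also holds intensity values: it is on a linear scale and not centred per gene, its column medians lay between 23.9 and 24.2, its log2 values correlated with the scanner values of the same array at r = 0.999 to 1.00, and its normalization method is not given in the sources used here. The sources of the arrays do not describe each animal, so p-values measure the spread between these samples. The number of arrays limits the precision.

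From the scanner files, control spots and outlier spots were left out, spots of a probe were averaged, and log2 of the processed signal minus each array's 75th percentile (219 to 364 intensity units) was taken. Probes that stood well above background on all 3 arrays of at least 1 group were retained, and the kept probe of highest mean level stood for its gene (15234 genes, 22535 probes). Probes were named by accession (24375), symbol (6301) or synonym (2426) in the RefSeq gene table, and 8072 kept the name of the file. The 4 group means were fitted on all 12 arrays with lmFit and eBayes of limma 3.58.1 (R 4.3.3), 8 residual degrees of freedom, 2-sided, and p-values were adjusted by Benjamini-Hochberg over all genes of a comparison and called under 0.05. For 234 genes an array value was missing and was left out of the fit. A second fit took each kept probe as a row. The code was tested on simulated data. Tables and plots used Python 3.11.15, pandas 2.3.3, numpy 2.4.6, scipy 1.17.1 and matplotlib 3.10.9.

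All ligases were named, and from each other list up to 4 genes with the smallest adjusted p in any comparison. Some genes of these lists are not reported here. For Fbxo32, Trim63 and Fbxo30 the 3 genes of most similar pattern were added. Members and lists were chosen with earlier results of these data known. Control and denervated samples share replicate numbers. Their deviations from the group means correlated at 0.303, 0.108 and 0.233 in WT pairs and at 0.09, 0.0137 and 0.175 in KO pairs. The WT correlations were read as a sign of pairing, and the KO ones were not. WT and KO denervated arrays of the same number, which come from different animals, correlated at 0.201, 0.298 and 0.00554. The first 2 of these pairs each shared a slide (slides 1 and 4). WT control 1 and WT denervated 1 also shared slide 1, so for them a shared slide cannot be told apart from pairing. The main fit used no pairing in either genotype. The replicate block, an alternative, paired the samples by number in both genotypes for the denervation responses. Alternatives covered background correction, normalization, the authors' values, filters, probe rule, slide, scan day, replicate number, the samples fitted and each array left out; those of the fit over probes were chosen after seeing the data.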

Additional observations from a re-analysis of the deposited data

How the results depend on the processing

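With normexp background correction, 2 ligases were called in WT muscle (12.5% of all genes), and the counts of all genes called were 1908 for WT denervation, 2728 for KO denervation, 0 for KO against WT control, 25 for KO against WT denervated and 0 for the interaction, beside 5979, 7146, 1, 333 and 28. With the mean of all kept probes, 7 ligases were called in KO muscle (47.6% of all genes). Between the genotypes after denervation, 1 ligase was called under quantile normalization, the authors' processed values and scan day as a block, beside 0 (2.39%, 2.35% and 3.18% of all genes). The genes called between control muscles numbered 5 with quantile normalization or array medians, 4 with the authors' values or the mean of probes, 2 with the stricter filter, slide as a random block or scan day as a block, and 0 with no filter, only the groups compared, slide as a fixed block or the replicate block. Between denervated muscles they numbered 203 with no filter and 126 with only the groups compared. For the interaction they numbered 5 with no filter, 12 with the stricter filter, 4 with slide as a fixed block and 9 with the replicate block; fitting only the groups compared gives no separate value there.

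The Smad4 difference in control muscle lost its call with the replicate block (adjusted p = 0.0666), and so did the Znrf2 rise in KO muscle (adjusted p = 0.0814); in WT muscle the block changed no call of a ligase beyond the Trim63 and Mul1 probes given above. Signs turned only for differences that had not passed. The WT difference of Trim63 was -0.15 with normexp, -0.16 with slide as a fixed block, -0.00432 with slide as a random block and -0.16 with scan day, and that of Fbxo32 was -0.24 with slide as a fixed block and -0.42 with scan day. In KO muscle Trim63 was -0.032 with normexp, and the Fbxo31 probe A_51_P356283 was 0.064 with quantile normalization and 0.036 with the authors' values.

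With each array left out in turn, the ligases called ranged from 3 to 5 in WT and from 3 to 4 in KO muscle and stayed at 0 to 0 in the other comparisons. The genes called ranged from 4813 to 6119 for WT denervation, 6101 to 7223 for KO denervation, 0 to 2 between control muscles, 151 to 320 between denervated muscles (151 without WT denervated 2 or KO denervated 2) and 5 to 51 for the interaction (51 without KO denervated 1, 5 without WT control 2 or KO control 2). Trim63 ranged from -0.078 to 0.27 in WT and -0.093 to 0.25 in KO muscle, Fbxo32 from 0.0028 (without WT denervated 3) to 0.98 in WT and -0.23 to 0.47 in KO muscle, and the Fbxo31 probe A_51_P356283 from -0.26 to 0.0057 there. Signals below the detection limit of an array have no order, so the Cblb probes and the dimmer Traf6 probe give no measured level.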
